A study of Mus musculus with 4 samples.

Results

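The genes described here were expressed in Control CT26 cells and nearly silent in iRhom KO cells. They were chosen by level alone. A named row of the expression table was taken when both Control libraries held at least 1 FPKM and the mean of the 2 iRhom KO libraries was under 0.3 FPKM, where FPKM is the number of fragments scaled by transcript length and by the mapped fragments of the library. Predicted genes, RIKEN clones, pseudogenes marked as such, histone genes and purely numeric names were left out. Of 21724 rows, 27 passed the levels, 10 of these were left out by name and 17 remained. Since the same 4 libraries chose the genes, their own differences are given as a description, with no test.

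CT26 is a mouse colon carcinoma line of BALB/c origin. RNA was sequenced from cells grown in culture, with no treatment after the knockout. The label of the comparison cells is Control, and the study's legend for these data calls them WT, while its methods also describe a vector clone. The Control group held 2 libraries (S17 and S19) and the iRhom KO group held 2 (S18 and S20). The knockout was made with a lentiviral CRISPR vector directed at Rhbdf1, the gene of iRhom1, an inactive relative of the rhomboid proteases that guides the maturation and trafficking of the sheddase ADAM17. Knockout cells were selected with puromycin and grown from a single clone, so a difference between the groups cannot be told apart from a difference between clones. The study describes these data as representative of repeated independent experiments, but the sources used here do not tie the libraries to them, so the spread within a group may be technical.

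The libraries held an estimated 50100000 to 53900000 fragments, from a recurring step in the low FPKM values of pseudogenes, taken as 1 fragment. A finer step of about 2 times smaller size also occurred. If that step were the single fragment, all fragment numbers here would be about 2 times larger, so they are approximate. Rhbdf1 was at 0.538 and 0.890 FPKM in Control and at 0.0940 and 0.0584 in iRhom KO. Its values equal those of Apobec2 in 3 of 4 libraries, so they were not used as a measure of the knockout. The table lists no gene at 0 in both iRhom KO libraries, so genes without any read there are not analysed here. Of 12 leukocyte markers, 4 had rows, all under 1 FPKM, with a summed level of 0.105 to 0.156 in Control and 0.0561 to 0.0996 in iRhom KO. Of 15 colon epithelial markers, 5 had rows, with a summed level of 18.8 to 19.9 FPKM in Control and 36.8 to 38.0 in iRhom KO. Krt18 was at 8.58 and 9.39 FPKM in Control against 17.4 and 18.3 in iRhom KO, and Krt20 at 10.2 and 10.5 against 13.6 and 11.3. Vil1 and Cdx2 were under 0.3 FPKM in every library, and Krt8 was at 0.0278 and 0 FPKM in Control against 6.80 and 7.03 in iRhom KO.

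Von Willebrand factor (Vwf) is stored in endothelial cells and platelets and tethers platelets to damaged vessel walls. Intercellular adhesion molecule 1 (Icam1) binds leukocyte integrins and is induced by inflammatory signals in many epithelial and endothelial cells. The Serpinb9 genes of mouse form a tandem family of intracellular protease inhibitors, of which Serpinb9 inhibits granzyme B, the protease that cytotoxic lymphocytes deliver into target cells.

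The promoter sequences of 9 of the 17 genes were found in RefSeq (GRCm38.p6). The pair from the Serpinb9 family is shown because both genes fell under the same limit and their upstream sequences are near copies. Each line is the 250 bases before the annotated start, 5′ to 3′ on the plus strand, at chr13:33249358-33249607 for Serpinb9e and chr13:33484540-33484789 for Serpinb9g. Capitals mark the 10 mismatches among 246 aligned bases (95.9% identity).
Serpinb9e: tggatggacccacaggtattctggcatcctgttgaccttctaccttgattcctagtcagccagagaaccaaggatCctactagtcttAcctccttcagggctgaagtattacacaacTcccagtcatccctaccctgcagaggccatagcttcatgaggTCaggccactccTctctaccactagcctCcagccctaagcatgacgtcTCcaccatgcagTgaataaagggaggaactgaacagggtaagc
Serpinb9g: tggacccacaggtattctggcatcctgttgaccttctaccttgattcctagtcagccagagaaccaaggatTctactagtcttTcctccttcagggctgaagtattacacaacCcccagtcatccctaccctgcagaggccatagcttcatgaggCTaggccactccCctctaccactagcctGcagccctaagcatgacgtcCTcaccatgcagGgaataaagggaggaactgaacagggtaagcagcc

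The upstream 250 bases of Icam1 and Cyp4f40 are shown as the members with the highest and the lowest CpG content. They lie at chr9:21015690-21015939 and chr17:32658636-32658885, both on the plus strand. Capitals in Icam1 mark a match to TTCNNNGAA that begins 42 bases before the start and a match to GGGCGG, read on the opposite strand, that begins 17 bases before it. Cyp4f40 held none of the searched motifs.
Icam1: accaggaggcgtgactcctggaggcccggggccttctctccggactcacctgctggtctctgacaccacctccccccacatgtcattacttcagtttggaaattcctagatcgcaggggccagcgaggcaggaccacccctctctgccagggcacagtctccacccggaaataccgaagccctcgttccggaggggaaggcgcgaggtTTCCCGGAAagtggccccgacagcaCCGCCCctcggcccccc
Cyp4f40: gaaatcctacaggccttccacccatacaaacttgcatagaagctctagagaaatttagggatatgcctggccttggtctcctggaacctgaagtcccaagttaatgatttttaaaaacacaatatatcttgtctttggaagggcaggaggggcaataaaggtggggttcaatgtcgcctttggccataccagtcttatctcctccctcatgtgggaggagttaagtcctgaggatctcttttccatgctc

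The 2 mature arms that RefSeq gives for Mir7011 are shown with the seed, bases 2 to 8, in capitals. The row of the table is the hairpin locus and not an arm, and the 2 seeds differ.
mmu-miR-7011-5p: aGGAGGAUgggagagggaggugu
mmu-miR-7011-3p: uCUGCUUCccuccuccucuag

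Members were low-level genes, which the rule itself favours. A gene with a higher Control level needs a larger fall to pass the iRhom KO limit. The Control mean had a median of 1.70 FPKM over the 17 genes (1.15 to 9.08), against 6.39 FPKM over the 10271 genes tested, and 12 of 17 had a Control mean under 2 FPKM. The iRhom KO mean ran from 0.0543 to 0.290 FPKM, with a median of 0.192. The iRhom KO mean was lower by a median of 10.7-fold, from 5.05-fold for Cfap299 to 54.9-fold for Vwf. All 17 were at least 5-fold lower, against 0.613% of tested genes. For every one of them the iRhom KO libraries lay wholly below the Control libraries, as they did for 46.1% of tested genes. The lack of overlap follows from the rule. The rule also forces a wide gap between the means, though not one of 5-fold. The comparison of folds therefore reuses the values that chose the genes, and the 0.613% includes the members. The fold was at least 10 for 10 genes and at least 20 for 5. Of 8087 named rows with both Control libraries at 1 FPKM or more, 0.21% met the rule. The mirror rule, silent in Control and expressed in iRhom KO, took 20 of 8005 rows (0.25%).

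**Figure D1:**
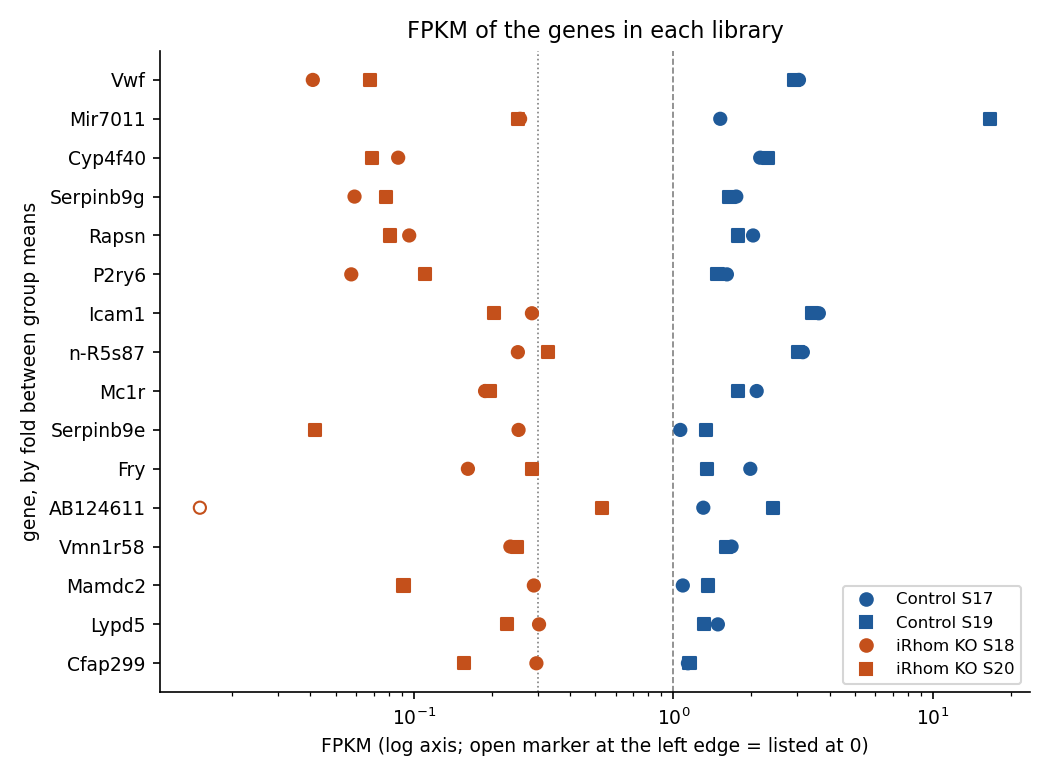
FPKM (log axis) of 16 of the genes in the 2 Control libraries (blue) and the 2 iRhom KO libraries (orange), with a dashed line at the Control limit of 1 FPKM and a dotted line at the iRhom KO limit of 0.3 FPKM. AB124611 is listed at 0 in S18 (open marker), and Mir7011 stands out by Control libraries that are 11.0-fold apart.

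**Figure D2:**
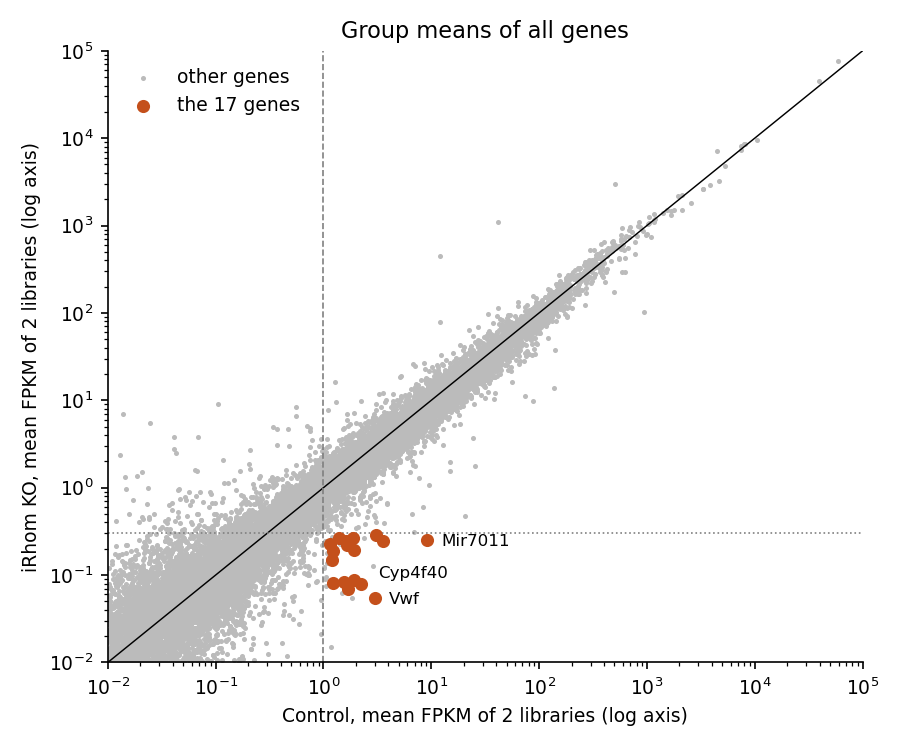
Mean FPKM of iRhom KO against Control over all rows, both axes log, with the diagonal of equal means and the same limits. The 17 genes (orange) lie in the lower right field, and Vwf is the lowest of them at 0.0543 FPKM. Grey points in that field are rows left out by name or with 1 Control library under 1 FPKM.

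Among genes of vessel and cell adhesion, Vwf was at 3.05 and 2.91 FPKM in Control and at 0.0409 and 0.0678 in iRhom KO (means 2.98 ± 0.0964 and 0.0543 ± 0.0190, SD, n = 2). The Control libraries were close, and both iRhom KO libraries were near 0. Among 9 endothelial markers 3 had rows, and Pecam1 and Tek, which define the lineage, were at or under 0.0197 FPKM in every library. Among genes that work with von Willebrand factor, chosen after the members were known, F8, the coagulation factor that it carries, was at 0.599 and 0.577 FPKM in Control and 0.531 and 0.544 in iRhom KO. Selp, the P-selectin of the same storage granules, fell from 3.27 and 2.64 FPKM to 1.78 and 1.51 (log2 difference -0.69 ± 0.13, SE; limma adjusted p = 0.0242). That call is lost without S18 or S20. Gp1bb, the only other tested gene of those chosen, was at 4.59 and 5.12 FPKM against 6.15 and 6.05 (limma adjusted p = 0.0503).

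Icam1 was at 3.64 and 3.43 FPKM in Control and 0.285 and 0.203 in iRhom KO, 14.4-fold lower. Icam1 lies at chr9:21015985-21028817, beside Icam4 and Icam5, which stayed at or under 0.190 FPKM in all 4 libraries. In the listed family of immunoglobulin superfamily adhesion molecules, 8 other genes were tested, of which 4 rose and 2 fell, with a median log2 difference of 0.35, against 21.9% lower and 10.7% higher over all tested genes. The count of lower genes was 1 without S17 or S18, 0 without S20 and 1 under trimmed mean scaling or quantile normalization. Vcam1, the receptor of the integrin VLA-4, rose from 9.59 and 9.31 FPKM to 16.1 and 15.6 (log2 difference 0.72 ± 0.06; limma adjusted p = 0.0062). Nectin2 and Igsf8 also rose, by 0.93 and 0.78 on the log2 scale, and Igsf11 fell by 1.03 (limma adjusted p = 0.00992, lost without S20 and not tested without S17, where its mean was under the filter). Rela, a subunit of NF-kappaB, which is known to act on the Icam1 promoter, fell from 8.78 and 8.64 FPKM to 5.60 and 6.15 (limma adjusted p = 0.0131), and Nfkb1 was at 8.35 and 8.40 against 8.52 and 8.50 (limma adjusted p = 0.81). Ezr, a cytoplasmic linker of ICAM proteins to actin, fell from 105 and 100.3 FPKM to 57.9 and 61.1 (limma adjusted p = 0.00563). Msn, another such linker, was too low to be tested, at 0.635 and 0.468 FPKM against 1.19 and 0.709.

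Lypd5 and Mamdc2 encode further surface or secreted proteins. Lypd5, of the Ly6/PLAUR domain family, was at 1.48 and 1.31 FPKM in Control and 0.304 and 0.228 in iRhom KO, and its S18 value lies just over the limit that was set on the mean. Plaur, the urokinase receptor on the same chromosome, was at 38.6 and 41.5 FPKM against 33.4 and 34.9 (limma adjusted p = 0.0719). Ly6a and Ly6c1, of the same domain family, rose by 1.03 and 1.25 on the log2 scale (limma adjusted p = 0.00499 and 0.00563). Mamdc2, a proteoglycan of the extracellular matrix, was at 1.09 and 1.36 FPKM in Control and 0.290 and 0.0913 in iRhom KO, with SDs of 0.190 and 0.141.

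Members of the receptor class were P2ry6, Mc1r and Vmn1r58, all G protein-coupled. P2ry6, a receptor for extracellular UDP, was at 1.61 and 1.48 FPKM in Control and 0.0575 and 0.110 in iRhom KO, 18.4-fold lower. P2ry6 was the 1 member in a list drawn up by gene name, of GPR, ADGR, lipid, nucleotide, Frizzled and olfactory receptor names. Names alone chose the list, so it also holds Ptgfrn and Gpr137b-ps, a row marked as a pseudogene. In it 29 other genes were tested, of which 7 fell and 2 rose, with a median log2 difference of -0.06. Over all tested genes 21.9% fell and 10.7% rose, and the count of lower genes in the list was 3 without S20. Within the list, P2ry10b fell from 1.62 and 1.62 FPKM to 0.543 and 0.530 (log2 difference -1.03 ± 0.08; limma adjusted p = 0.00547), and Fzd6, a Frizzled receptor, fell by 0.97. Adgra2 and Lpar1, a receptor for lysophosphatidic acid, rose by 1.18 and 0.95 on the log2 scale. P2ry2, the nucleotide receptor next to P2ry6 on chromosome 7, was at 0.841 and 0.762 FPKM in Control and 0.994 and 1.32 in iRhom KO (limma adjusted p = 0.109).

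Mc1r, the melanocortin receptor of pigment cells, was at 2.10 and 1.78 FPKM in Control and 0.188 and 0.197 in iRhom KO, which is about 410.9 and 336.5 fragments against 34.3 and 36.4. Mc1r lies at chr8:123407107-123410744, inside the annotated readthrough gene Gm20388, so fragments of such transcripts cannot be told apart from its own. Mitf, the pigment cell transcription factor, was at 2.24 and 2.47 FPKM against 2.19 and 1.59 (limma adjusted p = 0.233), and Dct, a melanin enzyme, was at or under 0.0046 FPKM in every library. Vmn1r58, named as a vomeronasal receptor, was at 1.68 and 1.59 FPKM in Control and 0.236 and 0.251 in iRhom KO. Its libraries agreed closely within each group.

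Cyp4f40, a cytochrome P450 of the fatty acid hydroxylase family 4, was at 2.16 and 2.32 FPKM in Control and 0.0871 and 0.0688 in iRhom KO, 28.7-fold lower. The 6 other tested cytochrome P450 and UDP-glucuronosyltransferase genes had a median log2 difference of -0.08. Of these, 2 fell and 1 rose, against 21.9% and 10.7% of all tested genes. Those were Cyp4f16 and Cyp39a1, lower by log2 differences of -0.55 and -0.67, and Cyp2c55, higher by 0.37, and none of the 3 calls holds without S17. Leaving out any other library left 1 lower gene and 0 higher. Cyp2j6 was at 2.16 and 1.99 FPKM against 1.82 and 1.70 (limma adjusted p = 0.156).

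Serpinb9g was at 1.75 and 1.65 FPKM in Control and 0.0591 and 0.0785 in iRhom KO, 24.7-fold lower, or about 182 and 165 fragments against 5.7 and 7.7. Serpinb9e was at 1.06 and 1.33 FPKM in Control and 0.253 and 0.0416 in iRhom KO, 8.12-fold lower. It was 6.09 times higher in S18 than in S20, the widest gap between iRhom KO libraries among the members above 0. Near-identical copies can share reads, so the split between these paralogs is uncertain. Over the listed family of serpins, 8 other genes were tested, of which 2 fell and 2 rose, with a median log2 difference of -0.01, and 1 fell without S18 or S20. Across all tested genes 21.9% fell and 10.7% rose. Serpinf1, which encodes pigment epithelium-derived factor, rose from 32.2 and 35.4 FPKM to 89.3 and 103 (log2 difference 1.50 ± 0.10; limma adjusted p = 0.00486). Serpinh1, the collagen chaperone, rose by 0.65 on the log2 scale and Serpinb8 fell by 0.70.

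Rapsn encodes rapsyn, which clusters acetylcholine receptors under the nerve ending of skeletal muscle. It was at 2.03 and 1.78 FPKM in Control and 0.0961 and 0.0809 in iRhom KO, 21.5-fold lower. Chrnb1, the beta subunit of that receptor, fell from 2.15 and 2.25 FPKM to 1.21 and 1.36 (log2 difference -0.60 ± 0.09; limma adjusted p = 0.0144). Chrna1, the alpha subunit, was too low to be tested, at 0.208 and 0.153 FPKM in Control and 0.0183 and 0.0257 in iRhom KO. Agrn, the ligand that triggers the clustering, went the other way, from 1.86 and 2.16 FPKM to 3.26 and 2.96 (limma adjusted p = 0.0249, lost without S17, S18 or S20).

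Fry, a large scaffold protein that binds NDR kinases, was at 1.98 and 1.35 FPKM in Control and 0.162 and 0.285 in iRhom KO. Its paralog Fryl stayed expressed, at 1.99 and 1.98 FPKM against 1.44 and 1.54 (limma adjusted p = 0.0419, lost when any 1 library is left out). Cfap299, named as a cilia and flagella protein, was at 1.14 and 1.15 FPKM in Control and 0.297 and 0.157 in iRhom KO, the smallest fold of the 17. The miRNA locus Mir703, annotated on the opposite strand inside Cfap299, was at 48.9 and 54.9 FPKM in Control and 84.8 and 81.3 in iRhom KO (log2 difference 0.68 ± 0.08; limma adjusted p = 0.01). AB124611 was at 1.30 and 2.42 FPKM in Control, and it was listed at 0 in S18 and at 0.532 in S20, so its place among the members rests on S18.

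The 2 members that do not encode proteins are short loci inside genes on the same strand. Mir7011 (chr3:88440879-88440951, 73 bases) lies in Sema4a and was at 1.52 and 16.6 FPKM in Control and 0.257 and 0.252 in iRhom KO. That is about 6 and 63.2 fragments against 0.9 and 0.9, and the Control libraries were 11.0-fold apart. Sema4a itself was at or under 0.0654 FPKM in every library. The 5S rRNA locus n-R5s87 (chr9:96549594-96549709, 116 bases) lies in Rasa2 and was at 3.16 and 3.03 FPKM in Control and 0.252 and 0.328 in iRhom KO, or about 19.7 and 18.3 fragments against 1.5 and 1.9. Rasa2 was at 1.85 and 1.69 FPKM against 1.51 and 1.30 (log2 difference -0.25 ± 0.10; limma adjusted p = 0.121).

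The 17 genes lay on 11 chromosomes, with 3 each on chromosomes 7 and 9. Only Serpinb9e and Serpinb9g were close neighbours, with 1 row of the table and 224 kb between them. The next closest pair was Icam1 and AB124611 on chromosome 9, with 22 rows and 497 kb between. The nearest tested gene on each side was taken for every member, which gave 34 neighbours. Of these, 8 were called lower and 4 higher, against 21.9% and 10.7% of all tested genes. The 8 include both Serpinb members, which the rule chose for a low iRhom KO level, so their calls are not a test. The neighbours had a median log2 difference of -0.10, and the median over all tested genes was also -0.10. A log2 difference below -1 was found for 3 of the 34, all in the Serpinb cluster, where both members are each other's neighbour and the other gene is Gm36099.

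Mc1r, for example, lay 3.27 kb from Tcf25, at 42.4 and 35.2 FPKM in Control and 44.5 and 34.1 in iRhom KO (limma adjusted p = 0.965). On its other side, at 0.68 kb, Tubb3 was at 5.47 and 4.89 FPKM against 6.99 and 7.50 (limma adjusted p = 0.0255, lost without S18, S19 or S20). P2ry6 lay 5.52 kb from Arhgef17, at 4.86 and 4.89 FPKM against 4.35 and 5.41. Over up to 10 tested genes on each side, the median log2 difference ran from -0.32 around Serpinb9e to 0.04 around Vmn1r58. Single genes in these windows also fell by more than 1 on the log2 scale, chosen here after their values were seen, such as Folr1 near P2ry6 (-1.86) and Nlrp4e near Lypd5 (-2.05).

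**Figure D3:**
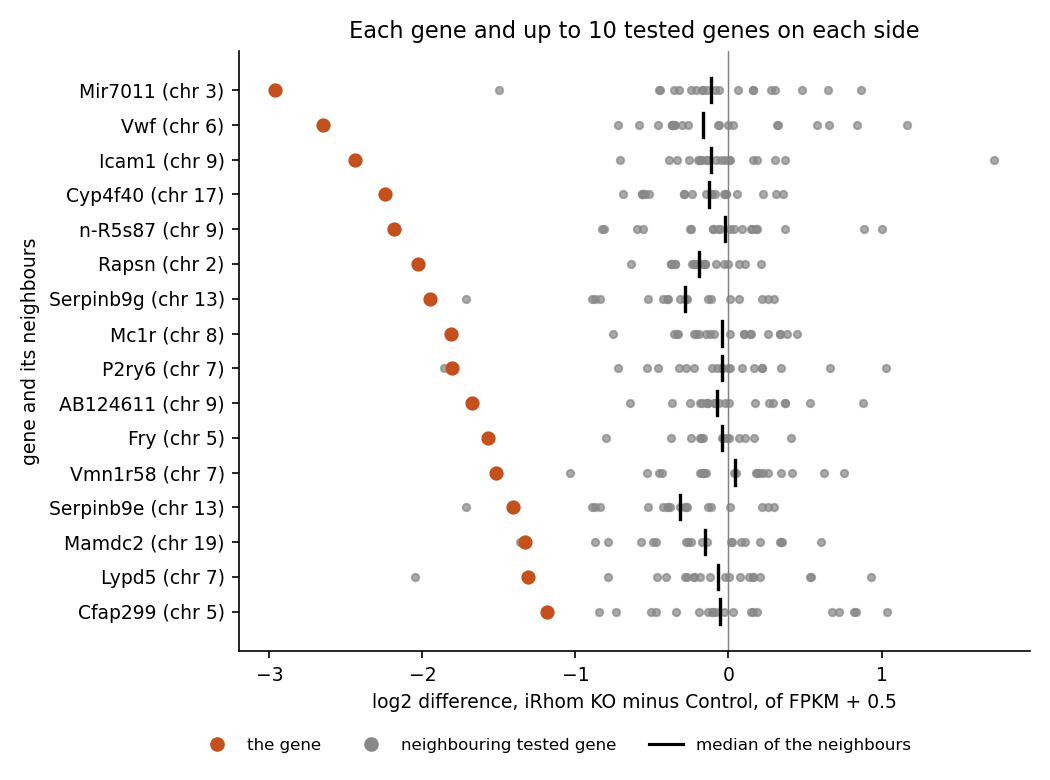
Log2 difference (iRhom KO minus Control, of FPKM + 0.5) of 16 of the genes (orange), of up to 10 tested genes on each side (grey) and the median of those neighbours (black bar). The medians sit between -0.32 and 0.04.

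In the Serpinb cluster of chromosome 13, levels differed from gene to gene. Serpinb9, the granzyme B inhibitor, was at 6.35 and 5.54 FPKM in Control and 5.15 and 5.57 in iRhom KO (log2 difference -0.14 ± 0.09; limma adjusted p = 0.319). Gm36099, which the annotation places inside Serpinb9b, fell from 2.44 and 2.40 FPKM to 0.430 and 0.348 (log2 difference -1.72 ± 0.09; limma adjusted p = 0.00358), and reads of overlapping genes may not be told apart. Serpinb9c was at 0.135 and 0.121 FPKM against 0.0051 and 0.0202, and Serpinb9f and Serpinb9d were also low throughout, at or under 0.418 FPKM. Serpinb9b was at 0.632 FPKM in S17 but 0.0701 in S19, so the Control libraries disagreed. Serpinb6c, at the far end, fell from 69.0 and 53.7 FPKM to 36.7 and 31.0 (limma adjusted p = 0.0232, lost without S18 or S20). The tested genes of chromosome 13 had a median log2 difference of -0.37 (421 genes).

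In the Cyp4f cluster of chromosome 17, Cyp4f17 stood at 0.426 and 0.482 FPKM in Control, and at 0.0236 and 0 in iRhom KO. Its Control level was under the limit, so it is not a member. Cyp4f13 was at 0.544 and 0.683 FPKM against 0.570 and 0.529, and the groups overlapped. Cyp4f16 had a mean of 2.89 FPKM in Control and 1.83 in iRhom KO. Chromosome 17 had a median log2 difference of -0.38 over 487 tested genes.

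**Figure D4:**
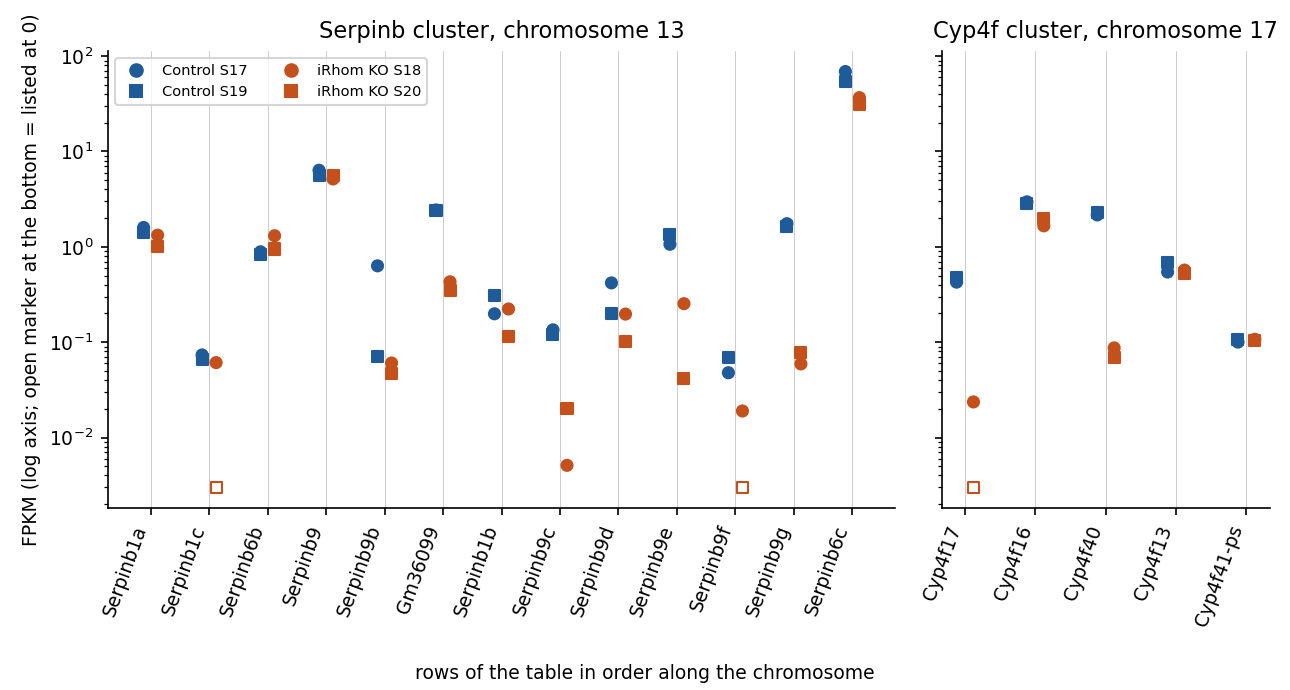
FPKM (log axis) of the rows of the Serpinb cluster on chromosome 13 and the Cyp4f cluster on chromosome 17, in order along the chromosome, for the 2 Control (blue) and 2 iRhom KO (orange) libraries, with open markers for values listed at 0. Serpinb9g and Cyp4f40 show wide gaps between groups, while Serpinb9 and Cyp4f13 do not.

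A feature that the rule did not use is the base content of the promoters. CpG observed over expected, the count of CG pairs times the length over the product of the C and G counts, was taken over 300 bases, 250 before and 50 after the start. For Fry the start is an internal one. The median CpG value over the 9 members with a promoter was 0.177, from 0.0621 for Cyp4f40 to 0.623 for Icam1, and 8 of 9 were under 0.6. The Serpinb9e and Serpinb9g promoters are near copies, so the 9 are not independent. Over 6968 other tested genes the median was 0.794 and 22.2% were under 0.6. Among 2219 tested genes with a Control mean of 1 to 4 FPKM, nearer to the members' own level, the median was 0.765 and 26.6% were under 0.6. Over all 32851 promoters of the RefSeq table the median was 0.384 and 64.2% were under 0.6. The mirror genes, silent in Control and expressed in iRhom KO, had a median of 0.320 over 14 promoters, with 8 under 0.6. No test of these differences was made.

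**Figure D5:**
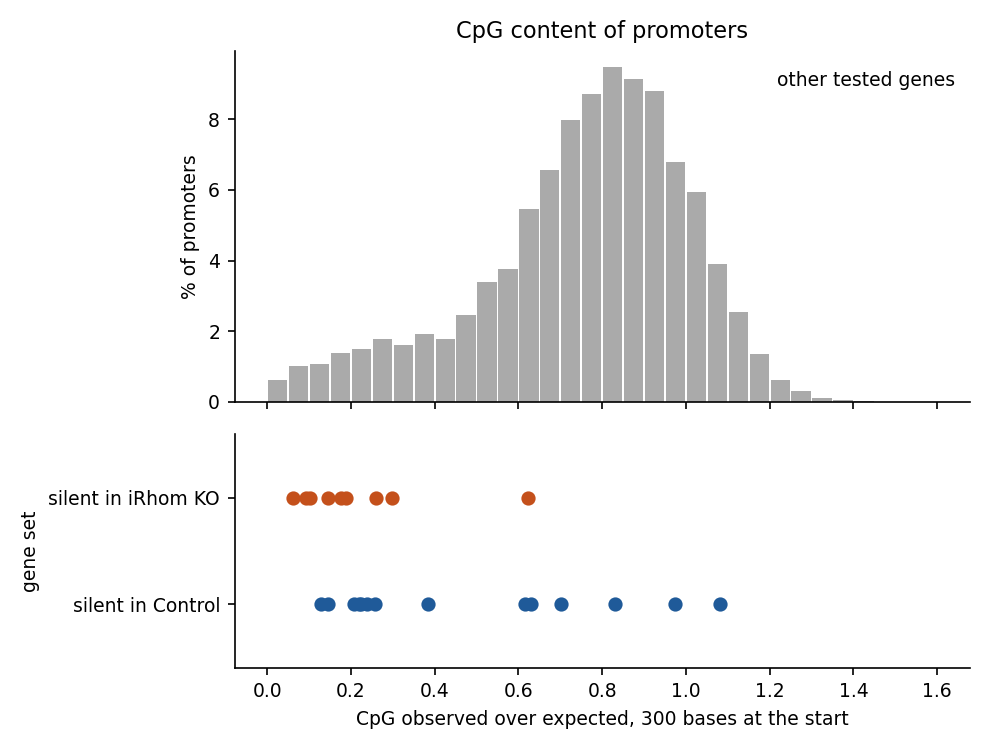
CpG observed over expected of promoters, as a histogram of other tested genes (% of promoters) above and as single genes below, for genes silent in iRhom KO (9, orange) and genes silent in Control (14, blue). The orange points lie at 0.623 or lower, and most of the histogram lies above 0.6.

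Known motifs were searched on both strands of the 300 bases. TATAAA was in 1 member (Icam1) against 13.6% of all promoters, GGGCGG, the core of SP1 sites, in 3 against 35.7%, CACGTG in 1 against 7.15% and TTCNNNGAA, a STAT-like pattern, in 2 (Icam1 and Vmn1r58) against 8.30%. The TATAAA of Icam1 and the TTCNNNGAA of Vmn1r58 do not lie wholly within the 250 bases before the start. TGANTCA, the AP-1 pattern, TGACGTCA, the CRE pattern, and an NF-kappaB pattern of 10 letters were in none of the 9, against 7.81%, 1.79% and 1.63%. These letters say only what is in the window. The NF-kappaB pattern was a strict form, and looser forms of the site were not searched. Its absence therefore does not show that a window, that of Icam1 included, lacks an NF-kappaB site.

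Near the limits, membership turned on small values. Just inside the iRhom KO limit were n-R5s87 (mean 0.290 FPKM), Lypd5 (0.266), AB124611 (0.266) and Mir7011 (0.255). Just outside were Zfp46 (0.348), Cst6 (0.358), Fos (0.364) and Rex2 (0.382). On the Control side, Serpinb9e (lowest library 1.06 FPKM), Mamdc2 (1.09) and Cfap299 (1.14) were among those just inside, and Klhdc7a (0.986), Olfr99 (0.899), Igsf11 (0.896) and Psors1c2 (0.843) just outside.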

How the data were processed

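RNA was sequenced from 4 CT26 libraries, 2 Control and 2 iRhom KO. The authors aligned reads to GRCm38 with HISAT2 and assembled them with StringTie (versions not given in the sources used here), and deposited FPKM per gene. The deposited table also holds the ratio of the group means (fold change) and its log2, which are the authors' own comparison and were not used. Differences were fitted with limma 3.58.1 (R 4.3.3) on log2(FPKM + 0.5), with trend, over 10271 genes whose mean reached 1 FPKM in either group, and a Benjamini-Hochberg adjusted p under 0.05 was a call. A log2 difference on this scale understates the change of low genes. The script was tested on simulated data. An exact permutation test of 2 against 2 libraries cannot go below p = 0.333, so none is given. Positions are from GENCODE (GRCm38). Promoters and miRNA arms are from RefSeq, read with Python 3.11.15 and aligned with Biopython 1.88. The members, gene lists and tests were chosen with earlier results of these data known. Named were the members (1 of the 17 is not reported here), the 4 genes nearest each limit, adjacent members and up to 4 tested genes of smallest p in each family with a member. Other genes (partners, paralogs, neighbours, markers) were chosen after values were seen.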

Additional observations from a re-analysis of the deposited data

How the results depend on the processing

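The number of members depends on the limits. It was 50 with a Control minimum of 0.5 FPKM and 4 with a minimum of 2 FPKM (Cyp4f40, Icam1, n-R5s87 and Vwf), 6 with an iRhom KO mean under 0.1 FPKM and 31 with a mean under 0.5. The same 17 genes were taken under trimmed mean scaling, quantile normalization and with rows of a shared symbol summed, and 14 when both iRhom KO libraries had to be under 0.3 FPKM (without AB124611, Lypd5 and n-R5s87). Leaving out 1 library gave 17 to 25 members: AB124611 and n-R5s87 were lost without S18 and Lypd5 without S20. Keeping protein-coding genes alone, an alternative chosen after seeing the data, gave 15. Over all tested genes, limma called 3350, and leaving out 1 library gave 1657 to 2290 (1979 without S17, 2026 without S19 and 1657 without S20). The share of lower calls was 67.3%, against 57.8% under trimmed mean scaling and 49.1% under quantile normalization. Of 571 values of 54 of the other named genes under the alternatives, 67 lost their call, 5 gained one and none reversed direction, and none of the 171 member values did. The median promoter CpG value was 0.218 over 200 bases. No paired analysis was possible because the value columns carry library tags and no replicate numbers. With 2 libraries a group, spread is poorly known. A member near 0.3 FPKM in a short locus rests on few fragments, about 1 or 2 by the step used.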
